A study of Mus musculus with 10 samples.

Results

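The genes described here encode enzymes that turn arachidonic acid into prostaglandins and leukotrienes. They were chosen by name: phospholipase A2 (Pla2g4a), the cyclooxygenases Ptgs1 and Ptgs2, the prostaglandin synthases Ptges, Ptges2, Ptgds and Hpgds, and the leukotriene genes Alox5, Alox5ap and Ltc4s. Of these 10 genes, 9 had a probe, with 15 probes among the 45281 probes and 19057 annotated genes of the arrays, and Ptgs1 was not analysed here. Messenger RNA was measured on 10 Illumina bead arrays of 2 mouse cell lines. 3T3-L1 cells are embryo fibroblasts that become adipocytes under a hormone mix, here insulin, dexamethasone and IBMX up to day 8, and RAW 264.7 cells are a macrophage line grown from ascites. In the bilayer the macrophages sat on a polycarbonate membrane with 0.4 µm pores above the adipocytes for 24 h. Monolayer means that a line was kept without the other, and no label tells if an insert or an equal volume of medium was used there. The adipocytes gave 3 monolayer and 3 bilayer samples and the macrophages 2 of each kind, all pooled from 5 dishes. They are described as biological replicates with no word on separate cultures, so the p-values cover only how far these samples vary, and that variation could be technical.

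Phospholipase A2 releases arachidonic acid from membranes, and a cyclooxygenase turns it into an unstable intermediate shared by all prostanoids. Separate synthases make prostaglandin E2, prostaglandin D2, prostacyclin or thromboxane from it. In the other branch, 5-lipoxygenase (Alox5) works with its activating protein (Alox5ap, also called FLAP) on the nuclear envelope to form leukotriene A4, which leukotriene C4 synthase (Ltc4s) joins to glutathione. Macrophages are a well-known source of leukotrienes, and cells that lack 5-lipoxygenase can take up leukotriene A4 from neighbouring cells and convert it. In fat tissue prostaglandin E2 restrains lipolysis.

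The members differed mainly by cell line, and the sequence before the start of 4 of them is shown, for a pair that was higher in macrophages and a pair that was higher in adipocytes. Each sequence holds the 250 bases before the annotated start, 5′ to 3′ on the gene's strand, from RefSeq on build GRCm38.p6, which had an entry for 9 of the 10 members. Capitals mark matches to AGGAAGT, a core letter run of ETS family factors, or to GGGCGG, the GC box of Sp1 factors, both searched on both strands with no overlap between matches.
Alox5, chr6:116461179-116461428, minus strand: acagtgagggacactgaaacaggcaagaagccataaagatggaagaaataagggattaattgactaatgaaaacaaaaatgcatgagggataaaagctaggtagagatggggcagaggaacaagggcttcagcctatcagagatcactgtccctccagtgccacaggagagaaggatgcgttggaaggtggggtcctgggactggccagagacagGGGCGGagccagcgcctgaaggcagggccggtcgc
Hpgds, chr6:65144731-65144980, minus strand: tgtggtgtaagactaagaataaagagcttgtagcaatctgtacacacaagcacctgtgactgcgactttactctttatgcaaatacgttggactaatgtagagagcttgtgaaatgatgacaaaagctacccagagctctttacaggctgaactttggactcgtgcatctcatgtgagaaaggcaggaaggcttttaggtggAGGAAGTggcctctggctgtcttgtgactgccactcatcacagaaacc
Ltc4s, chr11:50238533-50238782, minus strand: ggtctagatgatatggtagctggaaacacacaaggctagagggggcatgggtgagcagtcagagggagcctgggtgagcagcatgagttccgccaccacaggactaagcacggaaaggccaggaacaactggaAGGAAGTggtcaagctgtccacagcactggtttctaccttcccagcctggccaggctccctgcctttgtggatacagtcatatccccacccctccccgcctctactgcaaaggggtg
Ptges, chr2:30903298-30903547, minus strand: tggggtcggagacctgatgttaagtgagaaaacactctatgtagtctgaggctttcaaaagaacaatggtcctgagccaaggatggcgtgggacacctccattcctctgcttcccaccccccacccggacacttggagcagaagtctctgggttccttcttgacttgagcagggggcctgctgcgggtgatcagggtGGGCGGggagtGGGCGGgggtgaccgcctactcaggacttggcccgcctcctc

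The ETS core stood 48 to 42 bases before the start of Hpgds and 117 to 111 bases before that of Ltc4s, so it was present on both sides of the split between the lines. The GC box stood 35 to 30 bases before the start of Alox5, and Ptges had 2 of them, the nearer at 42 to 37 bases. Of the members not shown, Ptges2, which was also higher in adipocytes, and Ptgds held neither run. Ptgs1 and a window of Pla2g4a held the ETS core and Ptgs2 the GC box, while Alox5ap had no entry. Of all 32851 promoter windows of this length, 7.69% held the ETS core and 32.7% the GC box. A match describes letters in a window and does not show that a factor binds there.

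Values are the deposited linear intensities after background subtraction, and tests were run on log2(intensity + 16), a scale that understates the change of dim genes. Every fold is taken from a difference on this scale and is not a ratio of the printed intensities. Values up to 10.9 were treated as noise, since 99% of the negative values were no larger in size, and 41.9% of probes exceeded this noise bound on each array. All 7 measured adipocyte markers were above the bound in both adipocyte groups, with a summed intensity of 71420 to 76256 in monolayer and 67514 to 74757 in bilayer. The preadipocyte gene Dlk1 was also high in both, at 11348 to 12135, so the label adipocyte covers cultures that kept this marker. In macrophages 8 of 9 macrophage markers were above the bound on at least 1 array in monolayer and 9 of 9 in bilayer. Fcer1g was near the bound even there, at 10.3 and 2.99 in monolayer and 5.03 and 12.5 in bilayer, so its low values in adipocytes tell little. Of these 9 markers, 6 were above it on no adipocyte array (Adgre1, Fcer1g, Itgam, Laptm5, Ptprc and Tyrobp). Cd14 was above it on all 6 adipocyte arrays, at 245 to 328, Csf1r on 1 monolayer array (22.2) and 1 bilayer array (16.2), and Lyz2 on 1 monolayer array (16.3). The fibroblast markers were above it on no macrophage array, but some adipocyte markers were. Of the 7 adipocyte markers, 4 were above it on at least 1 monolayer macrophage array and 2 on at least 1 bilayer macrophage array. Lpl had 3418 to 4572 and Lipe 8.10 to 30.1 on macrophage arrays. Adipoq (12.1 and 19.0) and Plin1 (18.5) were above it in monolayer macrophages only. The summed macrophage marker intensity in adipocytes was 256 to 289 in monolayer and 304 to 354 in bilayer, nearly all of it from Cd14.

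The members measured for the first steps, Pla2g4a and Ptgs2, were at or near noise. Pla2g4a, the cytosolic phospholipase that frees arachidonic acid in many cells, had intensities of -6.32 to 0.321 over the 10 arrays, none above the bound. Ptgs2, the inducible cyclooxygenase, had -4.44, 0.147 and -2.07 in monolayer adipocytes and 2.65, -1.77 and -4.09 in bilayer adipocytes. In macrophages it had 4.19 and 12.3 in monolayer and 1.74 and 13.8 in bilayer, so that 1 array of each macrophage group lay just above the bound, and its second probe was below the bound on every array. No difference in Ptgs2 could be measured at this signal, between the lines in monolayer (log2 difference -0.57, 95% interval -1.23 to 0.09, adjusted p = 0.118 by limma) or in macrophages between bilayer and monolayer (log2 difference -0.05, 95% interval -0.77 to 0.66). In the fit with no intensity trend the line difference of Ptgs2 passed, at adjusted p = 0.0468. Ptgs2 met the filter only through macrophage arrays, which favoured this direction, so nothing is read from this call. In bulk samples such as these, a low value from few expressing cells and one from little RNA in each cell cannot be told apart.

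**Figure D1:**
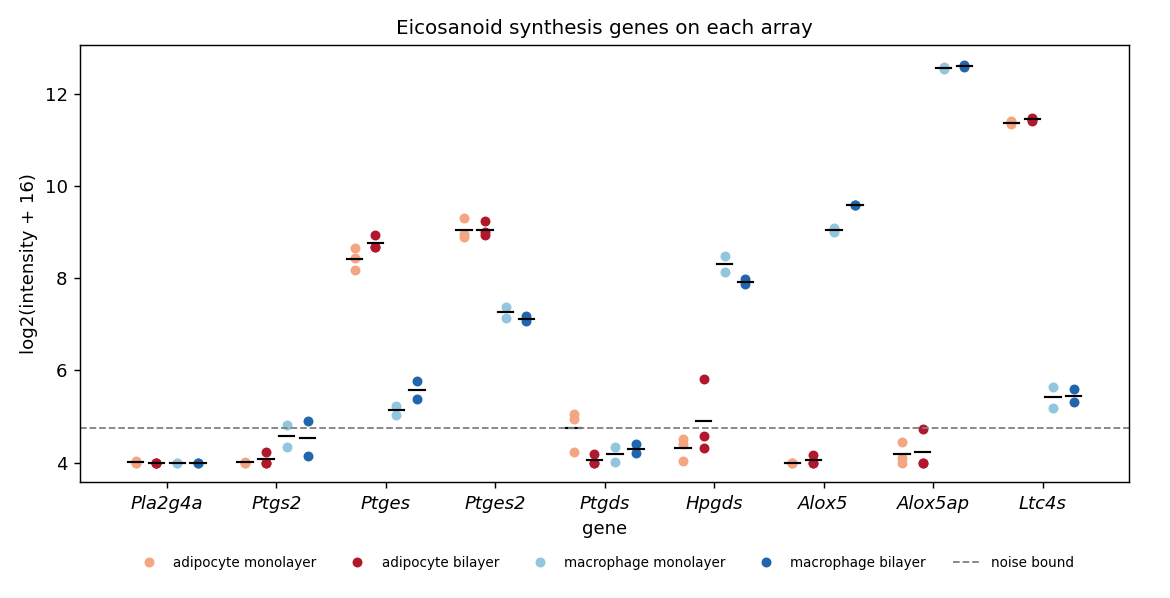
Intensity of 9 eicosanoid synthesis genes on each array, as log2(intensity + 16) with values below 0 set to 0, for the probe of each gene with the highest mean. Points are arrays, short black lines are group means and the dashed line is the noise bound of 10.9; levels of different genes come from different probes and are not comparable. Alox5, Alox5ap and Hpgds are high in macrophages (blue), Ptges, Ptges2 and Ltc4s in adipocytes (red), and Pla2g4a, Ptgs2 and Ptgds lie at or near the bound.

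Both members named for prostaglandin E2 synthesis were higher in adipocytes than in macrophages, where they were also above the bound on all 4 arrays. Ptges, the inducible microsomal synthase, had intensities of 388, 276 and 332 in monolayer adipocytes and 17.0 and 21.4 in monolayer macrophages. Every adipocyte array was far above every macrophage array, by 9.82-fold in monolayer (log2 difference 3.30, SE 0.17, adjusted p = 1.05e-10). In the bilayer Ptges had 476, 393 and 394 in adipocytes and 25.5 and 39.0 in macrophages, a 9.11-fold difference (adjusted p = 1.54e-10). Its second probe also read 174 to 276 on adipocyte arrays and was not above the bound on any macrophage array.

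Ptges2, a membrane-associated enzyme also named for prostaglandin E synthesis, had 621, 463 and 485 in monolayer adipocytes and 126 and 151 in monolayer macrophages. The groups did not overlap, and the difference was 3.47-fold (log2 1.79, SE 0.14, adjusted p = 1.24e-08). In the bilayer its intensities were 474, 587 and 496 in adipocytes against 118 and 129 in macrophages, a 3.82-fold difference (adjusted p = 5.06e-09). Another gene of this kind, Ptges3, the cytosolic synthase and Hsp90 co-chaperone p23, went the other way; it is no member and was chosen after its values were seen. It was lower in adipocytes in monolayer (log2 difference -0.99, adjusted p = 3.29e-05) and in bilayer (log2 difference -1.03), with mean intensities of 269 against 544 in monolayer.

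The genes of prostaglandin D2 synthesis were split. Hpgds, the haematopoietic synthase found in mast cells and some macrophages, had 266 and 345 in monolayer macrophages and 6.72, 5.28 and 0.45 in monolayer adipocytes. It was at least 11.9-fold lower in adipocytes, where no monolayer array was above the bound (adjusted p = 4.62e-08). In the bilayer it had 236 and 219 in macrophages and 40.4, 7.77 and 3.98 in adipocytes, so that 1 adipocyte array stood apart from the other two. The second Hpgds probe read -3.79 on that same array, so the higher value came from 1 probe only.

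Ptgds, the lipocalin-type synthase, had 2.79, 14.9 and 17.1 in monolayer adipocytes and -4.09, -1.55 and 2.21 in bilayer adipocytes. It was above the bound on 2 arrays in all, both of monolayer adipocytes, and on no macrophage array. Neither its difference between the lines in monolayer (log2 difference 0.56, 95% interval -0.10 to 1.22, adjusted p = 0.125) nor that in bilayer (log2 difference -0.24, adjusted p = 0.518) passed the test. Without monolayer adipocyte replicate 1 the monolayer difference did pass, at adjusted p = 0.031. Ptgds met the filter only through the 2 monolayer adipocyte arrays kept in that fit. The filter thus favoured a higher value there, and nothing is read from this call.

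By their brightest probes, Alox5 and Alox5ap were above the bound on all macrophage arrays and on no adipocyte array. Alox5 had 499 and 532 in monolayer macrophages and 757 and 760.5 in bilayer macrophages, against -5.01 to 1.96 on the 6 adipocyte arrays. It was at least 19.8-fold lower in adipocytes in monolayer (adjusted p = 3.9e-13) and at least 28.8-fold lower in bilayer (adjusted p = 1.4e-13). Alox5ap had 6012 and 6180 in monolayer and 6330.0 and 6198 in bilayer macrophages, and -5.47 to 10.3 on adipocyte arrays. Its difference was the widest of the members, at least 227-fold in monolayer and at least 234-fold in bilayer (adjusted p = 1.31e-14 and 1.37e-14). The second Alox5ap probe gave 5518 to 5931 in macrophages and exceeded the bound on 1 array of each adipocyte group, with 12.6 and 11.1.

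The enzyme that follows them lay in the other line. Ltc4s, which makes leukotriene C4, had intensities of 2704, 2591 and 2681 in monolayer adipocytes and 20.6 and 33.6 in monolayer macrophages. The difference was 62.7-fold (log2 5.97, SE 0.12, adjusted p = 2.58e-15). In the bilayer Ltc4s had 2866, 2733 and 2761 in adipocytes and 32.6 and 23.6 in macrophages, a 63.9-fold difference (adjusted p = 2.47e-15). The low macrophage signal was above the bound on all 4 arrays, and the arrays of the lines were far apart.

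Over the members, 6 of the 8 tested differed between the lines in monolayer, with Ptges, Ptges2 and Ltc4s higher in adipocytes and Alox5, Alox5ap and Hpgds lower, beside 65.8% of all 12324 genes tested (33% higher and 32.8% lower). The same 6 genes differed in the same directions in the bilayer, beside 66.3% of all genes (33.3% higher and 33% lower), so the share of members that differed was near that of genes in general. The median log2 difference of the 8 members was -0.00 in monolayer and -0.35 in bilayer, against -0.02 and -0.01 over all genes tested. The groups did not overlap for 7 of the 8 members in monolayer, beside 75.3% of all genes tested, and for 7 of 8 in bilayer, beside 74.2%. The comparison in bilayer shares no array with the one in monolayer.

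Over all 10 arrays, the genes whose log2 intensity was most like that of Alox5ap were Cyth4 (r = 1.00), Nup210 (r = 0.999) and Actr3 (r = 0.999), among 12323 genes. These values describe the split between 6 adipocyte and 4 macrophage arrays, which share that contrast. Those most like Ptgs2 were Ppib (r = 0.954), Zfp777 (r = 0.93) and Doxl2 (r = 0.93), but Ptgs2 was near noise, so little can be read from them.

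**Figure D2:**
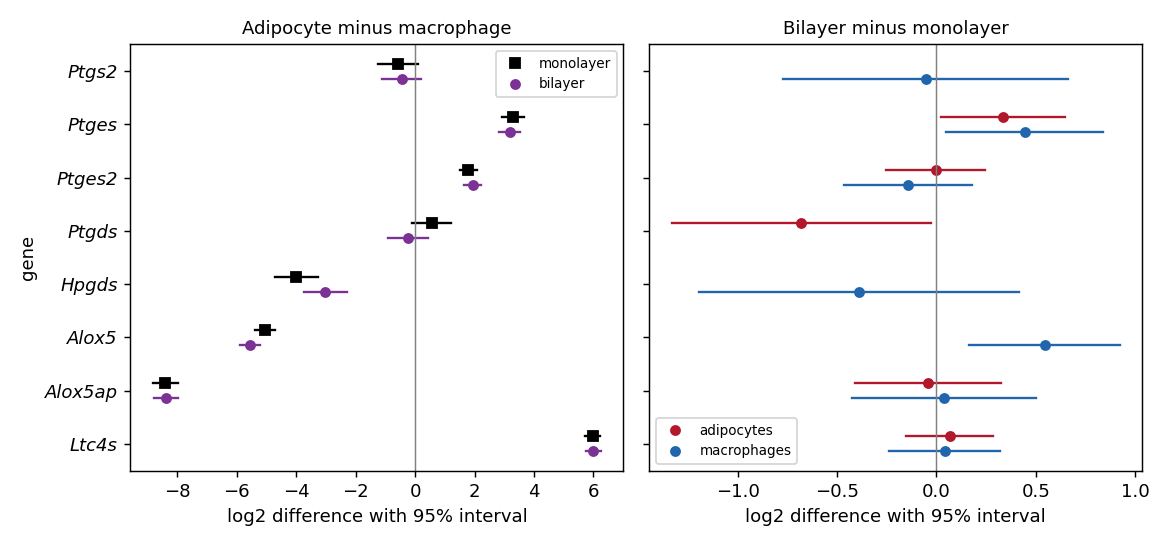
Log2 differences of 8 tested members with 95% intervals from limma, between the lines (left, adipocyte minus macrophage, in monolayer and in bilayer) and between culture conditions (right, bilayer minus monolayer, in each line). Members not tested in a line have no point. On the left 6 genes lie far from 0 in both conditions; on the right all differences are within 0.7 of 0 and none passed after adjustment.

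The bilayer comparison asks whether the presence of the other line changes these genes. In adipocytes 0 of the 5 tested members passed by limma, beside 10.8% of all 11037 genes tested (5.63% higher and 5.17% lower). Of these 5, Ptges, Ptges2 and Ltc4s were above the bound on every adipocyte array. Ptgds, and Alox5ap by its second probe, were near or below it, so they tell little. An unadjusted p under 0.05 was found for 2 of these 5 and for 24.7% of all genes. In macrophages 0 of 7 passed, beside 0.668% of 10326 genes (0.494% higher and 0.174% lower). An unadjusted p under 0.05 was found for 2 of the 7 and for 10.9% of all genes. Of these 7, Ptgs2 was near the bound. The median log2 difference of the members was -0.00 in adipocytes and 0.04 in macrophages, against -0.01 and 0.00 over all genes. The bilayer response differed between the lines for 0 of 8 members, beside 2.56% of 12324 genes (1.51% higher and 1.05% lower), with an unadjusted p under 0.05 for 1 of the 8 and for 16.5% of all genes.

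Ptges had higher values in bilayer in both lines, and neither difference passed. Its log2 difference was 0.34 in adipocytes (95% interval 0.02 to 0.65, adjusted p = 0.167 by limma) and 0.44 in macrophages (95% interval 0.05 to 0.84, adjusted p = 0.397 by limma). The arrays given above did not overlap between the conditions in either line. This held for 3 of the 5 members tested in adipocytes and 4 of the 7 in macrophages, with only 2 arrays a group in macrophages. The share over all genes was not computed for the bilayer comparisons, so nothing is read from such gaps. The second probe gave a log2 difference of 0.34 in adipocytes, and in macrophages it was below the bound.

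Alox5 showed the largest bilayer difference of the members measured in macrophages. It was 1.46-fold higher in bilayer, from 516 ± 23.0 to 759 ± 2.16 (SD, n = 2 each), and the difference did not pass (log2 0.54, SE 0.18, adjusted p = 0.252 by limma). The other probes were also higher in bilayer on both arrays, at 275 and 259.8 against 171 and 175, and at 170.2 and 162 against 113 and 119.8. In a fit of the macrophage arrays alone the SE was 0.09 and Alox5 passed (adjusted p = 0.00198), as it did with an offset of 64 (adjusted p = 0.0182) or no intensity trend (adjusted p = 0.0422). The interaction term, which compares this response with that of adipocytes, where Alox5 was below the bound, did not pass either (log2 -0.49, 95% interval -0.97 to -0.01, adjusted p = 0.295), but passed with an offset of 64 (adjusted p = 0.0391).

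No other member passed either. Alox5ap differed by 0.04 in macrophages (95% interval -0.43 to 0.50, adjusted p = 0.981), and Hpgds by -0.39 (95% interval -1.19 to 0.42, adjusted p = 0.798). Ltc4s differed by 0.07 in adipocytes (95% interval -0.15 to 0.29, adjusted p = 0.742), with all bilayer arrays above all monolayer arrays by a small margin. Ptges2 differed by -0.00 in adipocytes (95% interval -0.25 to 0.25) and by -0.14 in macrophages (95% interval -0.47 to 0.18). Ptgds in adipocytes had a log2 difference of -0.68 (adjusted p = 0.182), with all bilayer arrays below the bound. It met the filter only through monolayer arrays, which favoured this direction.

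Other genes of the pathway were taken from lists of 84 genes, 77 of them with a probe. In adipocytes 7 of the 44 tested were higher in bilayer (15.9%) and 1 was lower (2.27%), beside 5.63% and 5.17% of all genes tested. In macrophages 1 of 43 was higher (2.33%) and 0 lower, beside 0.494% and 0.174% of all genes. The same shares of all genes stand beside the bilayer counts of single lists below. The lists were chosen with earlier results of these data known, so no excess is read from the counts. The median log2 difference was 0.12 in adipocytes and 0.09 in macrophages, against -0.01 and 0.00 over all genes tested. All the genes that passed are named here.

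Among the prostanoid synthases outside the members, 2 of 5 tested were higher in bilayer adipocytes. Cbr1, a carbonyl reductase that can reduce prostaglandin E2 to F2 alpha and also handles many other carbonyl compounds, had 3466, 3451 and 3691 in monolayer and 7762, 7787 and 7932 in bilayer adipocytes. The rise was 2.21-fold (log2 1.14, SE 0.06, adjusted p = 2.23e-09). In macrophages Cbr1 had 382 and 341 in monolayer and 354 and 379.6 in bilayer, with overlapping arrays, and the responses of the lines differed (log2 1.12, SE 0.10, adjusted p = 4.84e-05 by limma). Ptgis, prostacyclin synthase, rose 1.52-fold in adipocytes, from 1130.3, 1139.8 and 1319 to 1831, 1648 and 2019 (adjusted p = 0.0147). The groups did not overlap, but leaving out monolayer replicate 1, monolayer replicate 2 or bilayer replicate 3 ended the call (adjusted p = 0.0704 to 0.0766), as did an offset of 4, no filter or no intensity trend (0.103 to 0.175).

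Ptgir, the prostacyclin receptor, was the 1 of 2 tested prostanoid receptors that rose in adipocytes, at a low level. It had 1.54, 19.1 and 4.23 in monolayer and 30.3, 26.9 and 21.5 in bilayer adipocytes (log2 0.86, SE 0.20, adjusted p = 0.00994), against 591 to 685 in macrophages. Dpep2, a dipeptidase that acts on leukotriene D4, had 3.73, 0.268 and 11.9 in monolayer and 15.1, 14.9 and 28.4 in bilayer adipocytes (log2 0.75, adjusted p = 0.0147), against 801 to 1166 in macrophages. Both are genes of high signal in macrophages. On the bilayer adipocyte arrays 7 of 9 macrophage markers were below the bound, while Cd14 was above it on all 3 and Csf1r on 1. The summed macrophage marker intensity, mostly Cd14, was higher on the bilayer (304 to 354) than on the monolayer adipocyte arrays (256 to 289), and its part in these results was not tested. The Ptgir call was lost without monolayer replicate 1 or 3 (adjusted p = 0.0509 to 0.0611). Leaving out monolayer replicate 1, monolayer replicate 2, bilayer replicate 2 or bilayer replicate 3 ended the Dpep2 call (adjusted p = 0.0571 to 0.781). Its log2 difference was 0.15 without bilayer replicate 3, 0.27 with an offset of 64 and 0.34 with its probes averaged, and in the last 2 the call was lost too. Both calls were also lost in the fit of the adipocyte arrays alone, with no filter and with no trend (adjusted p = 0.0692 to 0.156).

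Secreted phospholipases A2 were higher in bilayer adipocytes for 2 of 9 phospholipases tested. Pla2g12a rose 1.38-fold, from 2041, 1756 and 2062 to 2771, 2702 and 2620.4 (SE 0.08 in log2, adjusted p = 0.000704), with no overlap. Pla2g2e rose 1.81-fold, from 47.1, 41.9 and 79.8 to 92.9, 126 and 118 (adjusted p = 0.0337), and it no longer passed when monolayer replicate 1, monolayer replicate 2, bilayer replicate 2 or bilayer replicate 3 was left out (adjusted p = 0.0923 to 0.147). The Pla2g2e call was also lost with an offset of 4, no filter or no trend (adjusted p = 0.107 to 0.209). Abcc4, a pump that exports prostaglandins among other anions, rose 1.25-fold in adipocytes, from 486, 466 and 546 to 654, 642 and 592 (adjusted p = 0.0181). It did not pass in the absence of replicate 1 or 2 of either condition (adjusted p = 0.0579 to 0.0901), with no filter (0.0759) or with no trend (0.0791).

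Daglb, a lipase that makes the arachidonate-holding lipid 2-arachidonoylglycerol, was the 1 pathway gene that fell in adipocytes, by 0.39 on the log2 scale (SE 0.08, adjusted p = 0.00229). It had 754, 772 and 787 in monolayer and 529, 602 and 619 in bilayer. The call was lost when all its probes were averaged (adjusted p = 0.0892). Fads2, a desaturase on the way to arachidonic acid, was the 1 pathway gene that rose in macrophages, 1.45-fold from 119.8 and 132 to 192 and 186 (adjusted p = 0.0306). This call was lost without any of the 4 macrophage arrays or without monolayer adipocyte replicate 1 or 2 (adjusted p = 0.0538 to 0.208), and in the fit of macrophage arrays alone (adjusted p = 0.0543). With its probes averaged the Fads2 difference was 0.29 on the log2 scale and did not pass (adjusted p = 0.283).

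**Figure D3:**
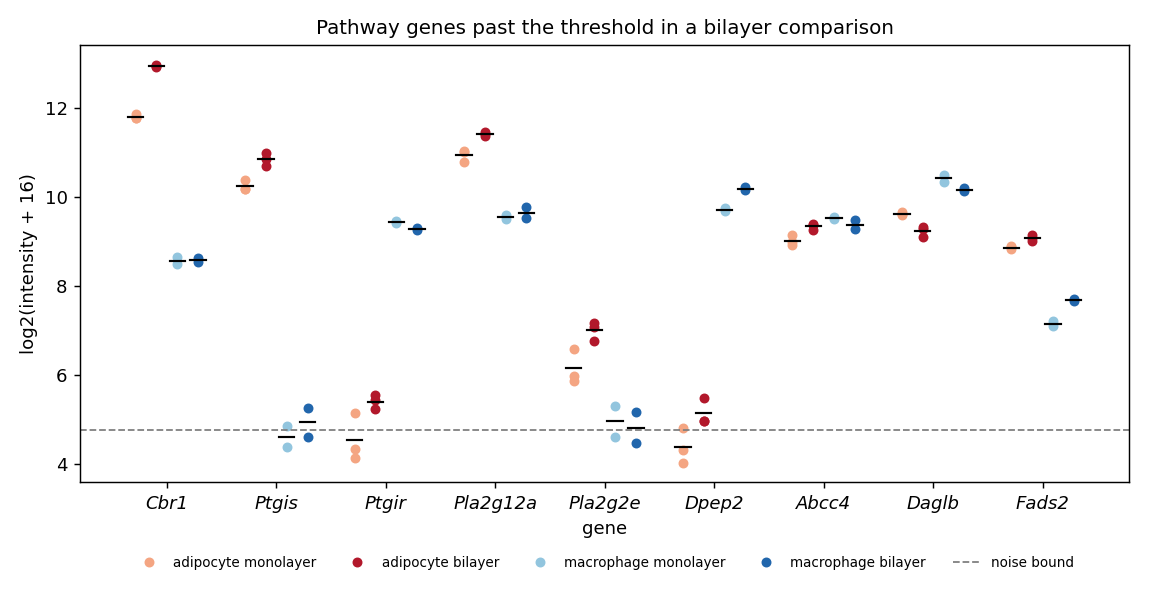
Intensity of the 9 pathway genes outside the members that passed the test in a bilayer comparison, as log2(intensity + 16) on each array. Points are arrays, short black lines are group means and the dashed line is the noise bound of 10.9; genes were selected by this test, and levels of different genes are not comparable. Cbr1 shows the widest gap between monolayer and bilayer adipocytes, with no such gap in macrophages, while Ptgir and Dpep2 in adipocytes stay close to the bound.

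Between the lines in monolayer, 23 of 57 tested pathway genes were higher in adipocytes and 17 lower (40.4% and 29.8%), beside 33% and 32.8% of all genes tested. Of the synthases, Ptgis was higher in adipocytes by 5.64 on the log2 scale, with 1 of 2 macrophage arrays above the bound, and Tbxas1, thromboxane synthase, was at least 10.0-fold lower. All 3 microsomal glutathione transferases, relatives of Ltc4s, were higher in adipocytes, led by Mgst1 at 98.7-fold and Mgst2, which can also make leukotriene C4, at 15.2-fold. Of the dipeptidases, Dpep1 was at least 7.77-fold higher in adipocytes and Dpep2 was lower, with a log2 difference of -5.33 and 1 of 3 adipocyte arrays above the bound. Lta4h, the enzyme for leukotriene B4, exceeded the bound on 1 array of bilayer adipocytes and 1 of monolayer macrophages.

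Of the 4 tested prostanoid receptors, 0 were higher in adipocytes, 2 did not pass and 2 were lower, Ptgir by a log2 difference of -4.89 (1 of 3 adipocyte arrays above the bound) and Ptger2, a prostaglandin E2 receptor, at least 3.73-fold. Of 4 tested leukotriene and lipoxin receptors 3 were lower in adipocytes, among them Cysltr1, the receptor for cysteinyl leukotrienes, at least 19.1-fold, and the lipoxin receptor Fpr2 at least 7.97-fold. Cysltr1 had 565 and 438 in monolayer and 608 and 630.0 in bilayer macrophages, and -5.41 to 2.66 on the adipocyte arrays.

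In phospholipid handling, 6 of 12 tested phospholipases were higher in adipocytes and 2 lower. The largest differences were Plaat3, a phospholipase of adipocytes, at least 8.81-fold higher, and Pla2g6, a calcium-independent enzyme, 7.23-fold higher. Of 12 arachidonate supply genes 5 were higher and 4 lower, with the monoacylglycerol lipase gene Mgll higher by 3.64 on the log2 scale (1 of 2 macrophage arrays above the bound) and Lpcat2, an acyltransferase of inflammatory cells, at least 11.4-fold lower. Of 5 epoxygenase and epoxide hydrolase genes 4 were higher in adipocytes, among them the hydrolases Ephx1 at 27.3-fold and Ephx2 with a log2 difference of 5.08 and 1 of 2 macrophage arrays above the bound. Of 5 transport and breakdown genes 1 was higher and 2 lower, with Ptgr2, a prostaglandin reductase, 1.44-fold higher and the leukotriene C4 exporter gene Abcc1 at least 1.49-fold lower in adipocytes.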

How the data were processed

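Biotin-labelled RNA of 10 samples was measured on Illumina mouse bead arrays, per the labels. The deposited values are linear intensities, which the authors had background-subtracted and normalized by a method not given in the sources used here; 35.5% of values on each array lay below 0. The submitters' processing notes list GenomeStudio 2011.1, without saying what it did. A further 20 deposited columns, of 2 slides, could not be tied to samples by name and were not used, so no slide effect was tested.

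Values below 0 were set to 0 and log2(intensity + 16) was fitted with limma 3.58.1 in R 4.3.3 over all 10 arrays and 4 groups (eBayes with an intensity trend, two-sided, Benjamini-Hochberg over all genes tested, called at 0.05). A gene was tested where a probe exceeded the noise bound on at least 2 arrays (of the compared line, or of all 10 where both lines entered), and was represented by its brightest such probe. Where no array of a group exceeded the bound, the fold is given as "at least", computed against the higher of the bound and the measured value. The fit was tested on simulated data, with changes set in genes well above the bound. It called 76.3% of log2 changes of 0.58 in adipocytes and 51.5% in macrophages, so real changes of that size could be missed. The platform table gave 1 symbol for 34885 probes, several for 18 and none for 10378. Where the gene identifier of a probe with 1 symbol matched a RefSeq gene, the RefSeq symbol was used in its place. The members, lists and naming rule were chosen with earlier results of these data known. The rule names all members, every pathway gene past the threshold in a bilayer comparison, for the comparison of the lines up to 2 genes of each list with the largest difference, and the 3 genes most like Alox5ap and Ptgs2. Alternatives covered the offset, filter, probe choice, scale, normalization, variance trend, arrays fitted, replicate block and leaving out each array. The number of arrays limits the precision.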

Additional observations from a re-analysis of the deposited data

Results flagged for a closer look

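Cbr1 is listed because its bilayer response differed between the lines by the interaction term of limma. The difference was 1.12 on the log2 scale (SE 0.10, adjusted p = 4.84e-05), with all 3 bilayer adipocyte arrays above all 3 monolayer ones and overlapping macrophage arrays. It passed under every alternative run, at adjusted p = 5.23e-06 to 0.00978, and leaving out single arrays gave at most 0.0013. No group had 4 or more arrays, so single arrays were not tested as outliers.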

How the results depend on the processing

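None of the 683 recomputed member values lost a call or changed sign where either fit passed. Calls were gained by 6: Alox5 in macrophages and in the difference of the responses, Ptgs2 and Ptgds between the lines, with the values given above. Differences that passed in neither fit could change sign. Without single arrays the bilayer difference of Ptges2 in adipocytes was -0.09 to 0.12, and that of Ptgs2 in macrophages -0.30 to 0.32. The count of members called in macrophages was 1 with an offset of 64, with no intensity trend and with only the macrophage arrays fitted, and in the difference of the responses 1 with an offset of 64. The count of genes called in adipocytes fell from 1192 to 603 with no filter on dim probes and 604 with no intensity trend, and was 692 to 1153 when single arrays were left out. In macrophages it rose from 69 to 155 with only their own arrays, and was 9 to 70 when single arrays were left out. For the difference of the responses it fell from 316 to 106 with no filter and 80 with no trend, and was 97 to 318 when single arrays were left out. A group left with 1 array was assumed to vary like the others.

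Replicate numbers were not used as pairs in the main fit, and no source used here tells if same-numbered samples belong together. Deviations of same-numbered arrays correlated at r = 0.0161 to 0.0526 in adipocytes, above those of differently numbered arrays, at -0.0567 to 0.0034. Centring within groups ties these values together, so higher ones for same numbers force lower ones for the others. They do not settle the pairing. In macrophages, centring 2 arrays a group fixes the size of every r (-0.0224 for same numbers), so it tells nothing about pairing. With the replicate block, 1197 genes were called in adipocytes. The count fell from 69 to 49 in macrophages and from 316 to 236 for the difference of the responses. Between the lines it fell from 8107 to 7425 in monolayer and from 8171 to 7493 in bilayer. No call of a member changed, and of the pathway genes the Fads2 call was lost (adjusted p = 0.0944). The slide was not run as a block, since the arrays were not tied to slides, and a fit of only the groups compared has no version for the difference of the responses.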
